A study of Mus musculus with 12 samples.

Results

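The genes described here are 46 mouse genes of the G2 phase and mitosis, found by gene symbol among the 55491 genes measured. All 46 were found, and all 46 passed the filter on low counts, so none is left out of the values below. Kinesin motors were set aside when the genes were chosen, although Cenpe, which is kept, itself encodes a kinesin-like motor. RNA came from PT-22, a mouse kidney line labelled proximal tubule, of genotype Pax2-/-,Pax8fl/fl,Rosa-CreERT2, in which 4-hydroxytamoxifen activates a Cre recombinase that removes the floxed Pax8 sequence. Confluent cells in DMEM with 3% fetal bovine serum received 4-hydroxytamoxifen at 1 µM over 2 days. Their polyA RNA was sequenced on day 2, day 6 and day 12 after treatment, beside that of untreated controls, with 3 libraries (A, B and C) in each of the 4 groups. The controls carry the same alleles, so all 4 groups lack Pax2. The control had no vehicle, and no later untreated library was among the samples used here. The drug, the recombinase, time in confluent culture and any depletion of PAX8 therefore cannot be told apart. Nothing says that the letters stand for separate cultures, so a p-value measures no more than how these libraries scatter.

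Cells enter mitosis when cyclin B and CDK1 become active, a step opened by CDC25 phosphatases and held back by WEE1. Polo-like and Aurora kinases then build the spindle, the kinetochore and its checkpoint watch over attachment of chromosomes, and the anaphase-promoting complex (APC/C) with CDC20 ends the process by destroying securin and cyclin B. Most of these genes are held down in resting cells by the DREAM complex and are switched on together in G2 by MuvB with B-MYB and FOXM1, and their transcripts are scarce in the tubules of the healthy adult kidney. In bulk RNA, fewer cells in G2 or mitosis and less transcript in each such cell cannot be told apart.

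Library totals ran from 4326667 counts (day 2 B) to 11654959 counts (day 2 C), and mitochondrial genes took 3.75% to 5.70% of counts, the highest share again in day 2 B. Pax8 itself was at 225 ± 3.46 CPM (counts per 1000000 TMM-scaled counts) in control, 402 ± 51.1 on day 2, 256 ± 10.9 on day 6 and 242 ± 10.5 on day 12 (SD, n = 3 each). It was not called lower than control on any day. It was called higher on day 2 (log2 difference 0.83 ± 0.07, SE, edgeR adjusted p = 5.59e-12) and on day 6 (log2 difference 0.18 ± 0.07, edgeR adjusted p = 0.0181). Day 12 against control was not called (log2 difference 0.10 ± 0.07, edgeR adjusted p = 0.189). Which of its exons are floxed and which the reads cover is not given, so its level does not check the labels. Of 15 markers of the proximal tubule 8 passed the filter, while the defining carriers Slc34a1, Slc5a2 and Slc5a12 were listed at 0 in all 12 libraries. The summed TPM of that list, a level scaled by transcript length, ran from 992.8 to 1122 in control, 683.1 to 772.1 on day 2, 715.6 to 885.4 on day 6 and 424.3 to 546.9 on day 12. Its members went different ways: Aqp1 averaged 108 ± 3.19 TPM in control, 344 ± 20.3 on day 2, 700.1 ± 90.6 on day 6 and 427 ± 60.04 on day 12, and Cdh16 701 ± 52.2 TPM in control, 293 ± 26.1 on day 2, 54.2 ± 5.36 on day 6 and 26.4 ± 3.99 on day 12 (SD, n = 3 each). A list of 10 fibroblast and smooth muscle genes, of which 6 passed the filter and Col3a1 and Pdgfra were at 0, ran from 10.69 to 12.89 TPM in control, 20.37 to 24.56 on day 2, 94.73 to 116.7 on day 6 and 344.2 to 435.2 on day 12. Acta2 made up most of this list's sum on day 12, with 294 ± 32.4 TPM beside 2.98 ± 0.902 in control (SD). Tagln averaged 63.0 TPM on day 12 and 3.90 in control, and Dcn 18.1 and 0.243. Des (8.55 and 3.92), Col1a1 (1.11 and 0.573) and Pdgfrb (0.36 and 0.0233) stayed lower, and Col1a2 and Lum did not pass the filter. The part of these shifts in the results below was not tested. Summed markers of leukocytes (Cd3e at 0) lay between 13.2 and 24.41 TPM in the 12 libraries, and those of endothelium (Cdh5 and Kdr at 0) between 0.33 and 4.53 TPM. Within the leukocyte sum, Csf1r averaged 10.4 ± 1.34 TPM in control and 4.06 ± 0.755 on day 12, and Cd68 8.21 ± 1.38 and 14.4 ± 1.87 (SD). Ptprc had 18, 5 and 8 counts in control A, B and C and 0 in every treated library. Reads per gene and library among the 46 genes ran from 83 counts (Spc24 in day 2 B) to 11532 counts (Top2a in day 2 C).

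Most of these genes were lower late after treatment. On day 12, 37 of 46 fell against control and 1 rose, by edgeR's quasi-likelihood test with an adjusted p below 0.05 over the 13513 genes tested. Across all genes tested, 26.6% fell in that comparison and 26.1% rose (52.8% in all). Log2 differences below are given with their standard error after ±. The median log2 difference, day 12 against control, was -0.48 over the 46 genes and 0.00 over all genes (-0.00283). On day 6, 34 fell and 2 rose, beside 27.6% and 26.7% of all genes (54.3% in all), with a median of -0.39. On day 2, 4 fell and none rose, beside 10.9% and 10.3% of all genes (21.2% in all), with a median of -0.06 over the 46 genes. That count moved with single libraries: 9 fell and 2 rose (Birc5 and Ube2c) without day 2 C, and 2 fell without day 2 A, without control C or with both groups fitted alone. Ect2 rose without day 2 B or without control A. At an unadjusted p below 0.05, 1 of the 46 was higher on day 2 (Ect2), and DESeq2 called 0 higher. The summed level of the 46 genes was 5704 ± 181 TPM in control, 5523 ± 255 on day 2, 4751 ± 47.8 on day 6 and 4215 ± 110.0 on day 12 (SD, n = 3 each). All day 6 and day 12 libraries lay below all control and day 2 libraries in this sum.

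The libraries of a group gave close medians. Set against the mean of the controls, the median log2 difference over the 46 genes was -0.51, -0.47 and -0.50 in day 12 libraries A, B and C. It was -0.36, -0.39 and -0.36 in the day 6 libraries, and -0.07, -0.12 and 0.02 in the day 2 libraries. On day 12, 39 genes were lower in every treated library than in every control library and 1 was higher, beside 30.2% and 29.6% of all genes. On day 6, 36 were lower and 2 higher in this way, beside 31.1% and 29.8%, and on day 2, 8 were lower and 1 higher, beside 16.6% and 15.6%. An F-test across the 4 groups called 37 of the 46 genes (80.4%) and 65.1% of all genes. On log2(TPM + 1) with limma, 34 of the 46 genes fell on day 12 and 22 on day 6, in a fit that changes both the unit and the test. Over all genes, that fit called 2181 lower and 3537 higher on day 6, where edgeR called 3729 and 3614.

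**Figure D1:**
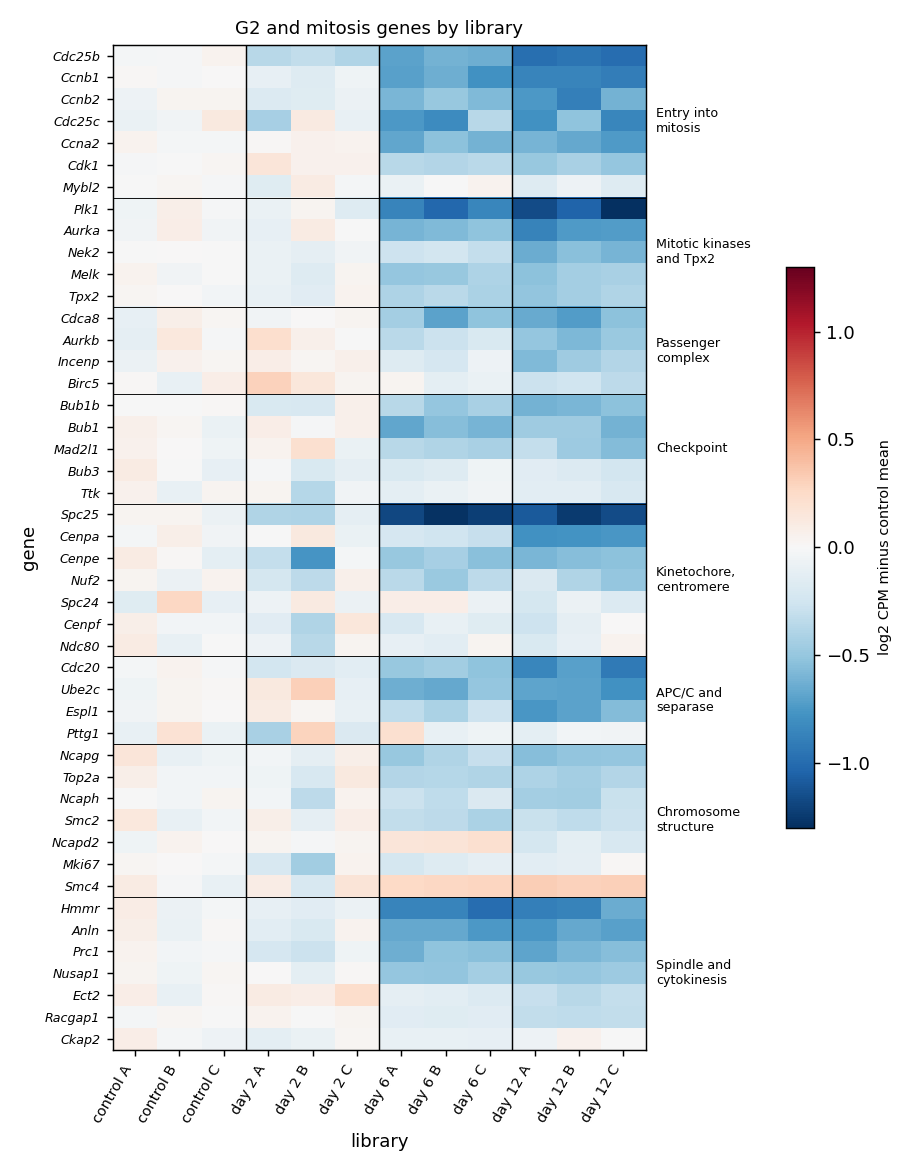
Log2 level of each of the 46 genes in each of the 12 libraries, set against the mean of the 3 controls, with libraries in columns from control to day 12 and genes in rows grouped by role. Colours run from low to high as the scale bar gives them, and most rows turn to the low side on day 6 and day 12, while Smc4 turns to the high side.

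Promoters of genes of this kind commonly hold a cell cycle homology region (CHR), bound by MuvB complexes, and CCAAT boxes, bound by NF-Y. RefSeq promoter windows (GRCm38.p6, 250 bases before to 50 bases after the start) matched 39 of the 46 genes by symbol, and 3 of these had more than 1 window, of which the first was read. Ccna2, Cdc25c, Aurkb, Incenp, Spc24, Tpx2 and Smc4 had none. The letters TTTGAA, searched on both strands, stood in the 250 bases before the start in 13 of 39 genes (33.3%) and in 16.3% of 27025 promoters. Over the whole 300 bases, a window added after the first count was seen, they stood in 26 of 39 (66.7%) and in 18.1% of promoters. TTCGAA stood before the start in 2 of 39 genes (5.13%) and in 1.34% of promoters, and CCAAT in 29 of 39 (74.4%) and in 34.5% of promoters. Overlap between motif matches occurred 2 times among these genes. Before the start, TTTGAA was in 11 of 32 genes that fell on day 12 and in 2 of 7 others. In the whole window it was in 21 of 32 and in 5 of 7. CCAAT stood before the start in 25 of 32 and in 4 of 7. A match describes letters only and is no binding site or cause.

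The sequences below are the 100 bases before the RefSeq start of 6 genes that fell on day 12. Each of the 6 holds TTTGAA within 40 bases of that start. GENCODE M21 places the gene start inside the printed bases for Cdc20 (base 118437352), Cdk1 (69352938), Espl1 (102296266), Ncapg (45669919) and Ube2c (164769898). Mki67, a widely used proliferation marker not called on day 12 against control, was picked after its values were seen and is given with 200 bases. Each is read 5′ to 3′ along the gene's own strand. Capitals mark TTTGAA or CCAAT, or their reverse complements TTCAAA and ATTGG.
Cdc20: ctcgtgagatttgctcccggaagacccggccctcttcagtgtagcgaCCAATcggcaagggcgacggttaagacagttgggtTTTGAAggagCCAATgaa
Cdk1: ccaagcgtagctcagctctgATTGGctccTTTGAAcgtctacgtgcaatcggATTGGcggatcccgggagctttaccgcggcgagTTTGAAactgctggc
Espl1: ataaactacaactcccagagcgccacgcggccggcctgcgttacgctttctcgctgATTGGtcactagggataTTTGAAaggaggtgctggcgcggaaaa
Mki67: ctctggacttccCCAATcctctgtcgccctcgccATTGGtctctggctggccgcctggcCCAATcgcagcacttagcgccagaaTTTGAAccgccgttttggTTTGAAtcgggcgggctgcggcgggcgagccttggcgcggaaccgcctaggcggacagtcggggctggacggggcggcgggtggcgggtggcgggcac
Ncapg: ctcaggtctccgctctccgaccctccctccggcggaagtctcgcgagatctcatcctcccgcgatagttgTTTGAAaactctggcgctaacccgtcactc
Top2a: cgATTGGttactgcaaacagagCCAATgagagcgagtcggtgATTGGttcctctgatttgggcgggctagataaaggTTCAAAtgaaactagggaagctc
Ube2c: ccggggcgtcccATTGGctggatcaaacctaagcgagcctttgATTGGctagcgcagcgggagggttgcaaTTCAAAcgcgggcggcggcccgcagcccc
Cdc20 lies at chr4:118437344-118437443 (minus strand), Cdk1 at chr10:69352913-69353012 (minus strand), Espl1 at chr15:102296193-102296292 (plus strand), Ncapg at chr5:45669825-45669924 (plus strand), Top2a at chr11:99024190-99024289 (minus strand), Ube2c at chr2:164769829-164769928 (plus strand) and Mki67 at chr7:135716380-135716579 (minus strand). Mki67 carries TTTGAA 2 times, at 116 and 98 bases before the start, and CCAAT letters 3 times. The printed genes that fell were picked for TTTGAA within 40 bases, so their distances cannot be set against those in Mki67. Other genes that fell hold TTTGAA only farther from the start: Bub3 at 43 bases, Ect2 at 114, Ncapd2 at 123, Smc2 at 145 and Ccnb2 at 167. Whether the letters or their place bear on the calls was not tested.

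**Figure D2:**
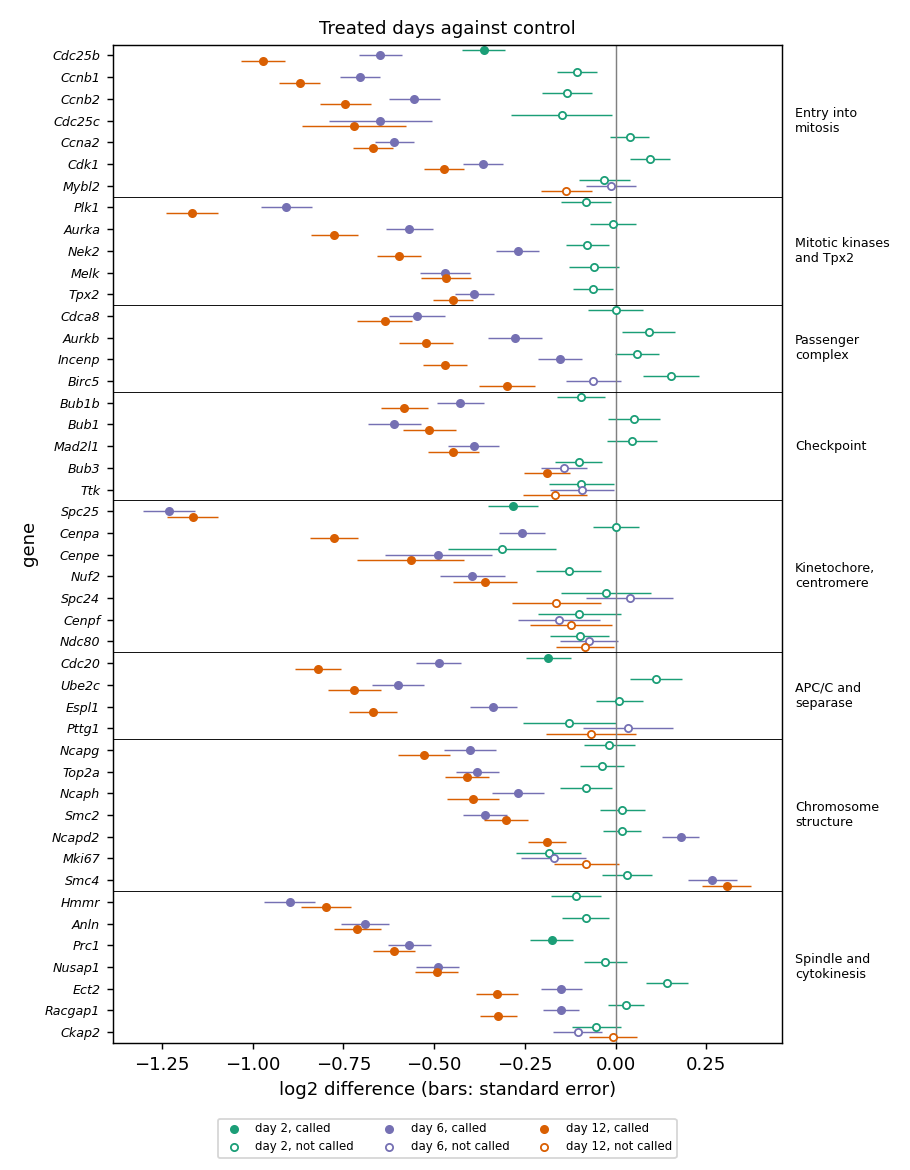
Log2 difference of each gene against control on each treated day, by edgeR, with bars for the standard error, filled points for genes past the threshold and open points for the rest. Points of day 2 stand near 0, whereas those of day 6 and day 12 lie mostly to the left, out to -1.23 for Spc25 on day 6.

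Among 7 genes of entry into mitosis, 6 fell on day 12 and on day 6, and 1 fell on day 2. Cdc25b, a phosphatase that starts CDK1 activation at the centrosome (chromosome 2, bases 131186949 to 131198497, plus strand, GRCm38), had 133, 134 and 139.7 CPM in control libraries A, B and C. Its values were 105, 108 and 104 CPM on day 2, 83.8, 88.8 and 87.1 on day 6 and 68.8, 70.4 and 68.4 on day 12. Each later group lay wholly below the one before it. Cdc25b fell on day 2 (log2 difference -0.36 ± 0.06, edgeR adjusted p = 1.02e-05), was lower still on day 6 (log2 difference -0.65 ± 0.06, edgeR adjusted p = 1.64e-11) and lowest on day 12 (log2 difference -0.97 ± 0.06, edgeR adjusted p = 6.37e-16). Day 12 was also lower than day 6 (log2 difference -0.32 ± 0.06, edgeR adjusted p = 0.000185).

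Cyclin B1, the main mitotic partner of CDK1, is encoded by Ccnb1 (chromosome 13, bases 100778650 to 100786570, minus strand). Ccnb1 stood at 249, 244 and 248 CPM in control, 229, 219.8 and 238 on day 2, 152, 159 and 144 on day 6 and 137, 136 and 133 on day 12. Day 12 libraries were below day 6 libraries, and both were far below control. Day 12 against control gave a log2 difference of -0.87 ± 0.06 (edgeR adjusted p = 1.82e-15), a 1.83-fold lower level. Ccna2, the cyclin of S phase and G2 (chromosome 3, bases 36564865 to 36572150, minus strand), had 440.2, 417 and 419 CPM in control, 430.1, 443 and 439 on day 2, 266, 293 and 277 on day 6 and 280.0, 268 and 255 on day 12. It dropped between day 2 and day 6 and was not called after that: day 6 against day 2 gave a log2 difference of -0.65 ± 0.05 (edgeR adjusted p = 5.15e-12), and day 12 against day 6 gave a log2 difference of -0.06 ± 0.05 (edgeR adjusted p = 0.495).

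Cdk1, the kinase itself, averaged 199 ± 3.02 CPM in control, 213 ± 8.89 on day 2, 155 ± 1.90 on day 6 and 144 ± 4.53 on day 12 (SD, n = 3 each). Its fall on day 12 (log2 difference -0.47 ± 0.06, edgeR adjusted p = 4.66e-09) was smaller than those of both cyclins B, although the difference between the genes was not tested. Ccnb2, a second cyclin B, fell on day 12 (log2 difference -0.74 ± 0.07, edgeR adjusted p = 4.16e-11), as did Cdc25c, a related phosphatase (log2 difference -0.72 ± 0.14, edgeR adjusted p = 6.02e-05). Mybl2, which encodes B-MYB, an activator of late cell cycle genes, was the exception in this group. It averaged 81.0 ± 1.27 CPM in control, 79.8 ± 7.36 on day 2, 80.4 ± 3.79 on day 6 and 73.7 ± 3.02 on day 12, and day 12 against control gave a log2 difference of -0.14 ± 0.07 (edgeR adjusted p = 0.102).

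All 5 genes of the mitotic kinases and Tpx2 fell on day 6 and on day 12, and none was called on day 2. Plk1, the polo-like kinase that acts from centrosome maturation to cytokinesis (chromosome 7, bases 122159439 to 122169873, plus strand), had 132, 145 and 136 CPM in control and 129, 141 and 122 on day 2. It had 75.7, 68.0 and 76.4 CPM on day 6 and 61.5, 66.7 and 55.6 on day 12. Day 2 libraries overlapped the controls, and every later library lay far below both. With 2.25-fold lower expression on day 12 than in control (log2 difference -1.17 ± 0.07, edgeR adjusted p = 4.48e-16), Plk1 had the lowest log2 difference of the 46 genes that day. Between day 6 and day 12 the difference was -0.26 ± 0.07 (edgeR adjusted p = 0.00996), but the adjusted p was 0.0869 without day 12 C, 0.0586 without day 6 A and 0.0574 without day 6 C.

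Aurora A, which matures spindle poles, is encoded by Aurka (chromosome 2, bases 172356190 to 172370535, minus strand). Aurka had 141, 154 and 141 CPM in control, 135, 156 and 145 on day 2, 95.4, 97.6 and 101 on day 6 and 79.3, 87.2 and 87.8 on day 12. Control and day 2 libraries overlapped, and day 12 against control gave a log2 difference of -0.78 ± 0.06 (edgeR adjusted p = 1.87e-12). Tpx2, the activator of Aurora A, fell less on day 12 (log2 difference -0.45 ± 0.05, edgeR adjusted p = 1.34e-08). Nek2, a kinase that parts the centrosomes, fell on day 12 against control (log2 difference -0.60 ± 0.06, edgeR adjusted p = 2.33e-10) and against day 6 (log2 difference -0.33 ± 0.06, edgeR adjusted p = 0.000143). Melk, a kinase of dividing cells, fell on day 6 (log2 difference -0.47 ± 0.07, edgeR adjusted p = 5.16e-07) and by a like amount on day 12 (log2 difference -0.47 ± 0.07, edgeR adjusted p = 5.17e-07).

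All 4 subunits of the chromosomal passenger complex, which corrects faulty attachments and guides cytokinesis, fell on day 12. Aurkb, its kinase (chromosome 11, bases 69045647 to 69051664, plus strand), had 84.6, 101 and 90.4 CPM in control, 107, 95.6 and 91.1 on day 2, 72.0, 75.7 and 79.8 on day 6 and 64.9, 61.1 and 65.6 on day 12. Day 12 libraries were the lowest, and day 12 against control gave a log2 difference of -0.52 ± 0.07 (edgeR adjusted p = 2.69e-07). Cdca8 (borealin) fell on day 12 (log2 difference -0.64 ± 0.08, edgeR adjusted p = 1e-08) and Incenp, the scaffold, fell on day 12 (log2 difference -0.47 ± 0.06, edgeR adjusted p = 4.4e-08). Birc5 (survivin) fell on day 12 (log2 difference -0.30 ± 0.08, edgeR adjusted p = 0.00148) but was not called on day 6, where its difference was -0.06 ± 0.08 (edgeR adjusted p = 0.524). The day 6 fall of Incenp was small (log2 difference -0.15 ± 0.06, edgeR adjusted p = 0.0316), was lost without any of control B, control C, day 6 A, day 6 B and day 12 B (adjusted p 0.055 to 0.15), and had the opposite sign on the TPM scale (0.05, not called).

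Of 5 spindle checkpoint genes, 4 fell on day 12 and 3 on day 6. Bub1b, which encodes the checkpoint protein BUBR1 (chromosome 2, bases 118598211 to 118641591, plus strand), had 153, 153 and 155 CPM in control, 134, 133 and 160.4 on day 2, 119.5, 108 and 115 on day 6 and 100.2, 101 and 106 on day 12. Day 6 and day 12 libraries all lay below the controls, and the gene fell on day 12 (log2 difference -0.58 ± 0.07, edgeR adjusted p = 2.2e-09). Bub1, the kinase that recruits the checkpoint, fell on day 6 (log2 difference -0.61 ± 0.07, edgeR adjusted p = 9.83e-09) and on day 12 (log2 difference -0.51 ± 0.07, edgeR adjusted p = 2.41e-07). Mad2l1, whose product MAD2 restrains CDC20, fell on day 12 (log2 difference -0.45 ± 0.07, edgeR adjusted p = 1.59e-06).

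Bub3, the partner of BUB1 and BUBR1, had a small fall on day 12 (log2 difference -0.19 ± 0.06, edgeR adjusted p = 0.0119) that was lost without control A (adjusted p 0.0968) or day 12 C (adjusted p 0.0623). On log2(TPM + 1) that fall was -0.12 and not called (limma adjusted p = 0.227). The F-test across the 4 groups did not call Bub3 (edgeR adjusted p = 0.0514). Ttk, the MPS1 kinase at the top of the checkpoint, averaged 33.8 ± 0.959 CPM on day 12 and 37.8 ± 2.06 CPM in control (SD, n = 3 each), a log2 difference of -0.17 ± 0.09 (edgeR adjusted p = 0.115). Checkpoint genes of the same pathway thus ranged from -0.58 to -0.17 in log2 difference on day 12.

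At the kinetochore and centromere, 4 of 7 genes fell on day 12, among them 2 of the 4 subunits of the NDC80 complex. The NDC80 complex, which grips microtubules, joins NDC80 and NUF2 at its outer end and SPC24 and SPC25 at its inner end. Spc25 (chromosome 2, bases 69193895 to 69206194, minus strand) had 149, 149 and 138 CPM in control and 111, 110.4 and 134 on day 2. It had 64.1, 59.6 and 62.3 CPM on day 6 and 68.5, 61.3 and 64.8 on day 12, so that every treated group lay below the controls. Spc25 fell on day 2 (log2 difference -0.28 ± 0.07, edgeR adjusted p = 0.00223) and had the lowest log2 difference of the 46 genes on day 6 (log2 difference -1.23 ± 0.07, edgeR adjusted p = 1.83e-16). On day 12 it was 2.24-fold lower than control (log2 difference -1.17 ± 0.07, edgeR adjusted p = 5.3e-16).

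Its direct partner Spc24 (chromosome 9, bases 21755442 to 21760303, minus strand) had 16.1, 21.6 and 16.6 CPM in control, 17.1, 19.4 and 17.1 on day 2, 19.1, 19.1 and 17.1 on day 6 and 15.3, 17.1 and 15.8 on day 12. The groups overlapped, and day 12 against control gave a log2 difference of -0.16 ± 0.12 (edgeR adjusted p = 0.272). On the TPM scale, which allows levels of both genes to be set side by side, Spc25 stood at 91.9 ± 5.32 TPM on day 12 and 199.9 ± 7.97 TPM in control, and Spc24 at 26.2 ± 4.24 TPM on day 12 and 30.9 ± 3.29 TPM in control. Nuf2 fell on day 12 (log2 difference -0.36 ± 0.09, edgeR adjusted p = 0.00102), while Ndc80 was not called (log2 difference -0.08 ± 0.08, edgeR adjusted p = 0.392). On log2(TPM + 1), the fall of Nuf2 was -0.30 with a limma adjusted p of 0.0662.

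Cenpa encodes the histone H3 variant that marks centromeres (chromosome 5, bases 30666777 to 30674830, plus strand). Cenpa had 106, 114 and 105 CPM in control, 107, 118 and 102 on day 2, 92.9, 90.1 and 87.6 on day 6 and 62.4, 63.0 and 63.9 on day 12. The day 12 libraries stood well below all the others. The log2 difference of day 12 against day 6 (log2 difference -0.52 ± 0.07, edgeR adjusted p = 3.35e-07) was the lowest of the 46 genes, and day 12 against control gave a log2 difference of -0.78 ± 0.07 (edgeR adjusted p = 2.93e-12).

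Cenpe, the kinetochore motor, and Cenpf, a large kinetochore protein, had libraries that scattered. In day 2 libraries A, B and C, Cenpe had 204, 149 and 248 CPM, and its controls had 272, 256 and 232 CPM. On day 12, Cenpe had 167, 172 and 175 CPM and fell against control (log2 difference -0.56 ± 0.15, edgeR adjusted p = 0.0107). Its fall on day 6 (log2 difference -0.49 ± 0.15, edgeR adjusted p = 0.0205) did not hold when any 1 of day 6 A, day 6 C, control A and control B was left out (edgeR adjusted p 0.0535 to 0.0694). Cenpf averaged 269 ± 24.9 CPM on day 12 and 294 ± 13.6 CPM in control and was not called (log2 difference -0.12 ± 0.11, edgeR adjusted p = 0.394).

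**Figure D3:**
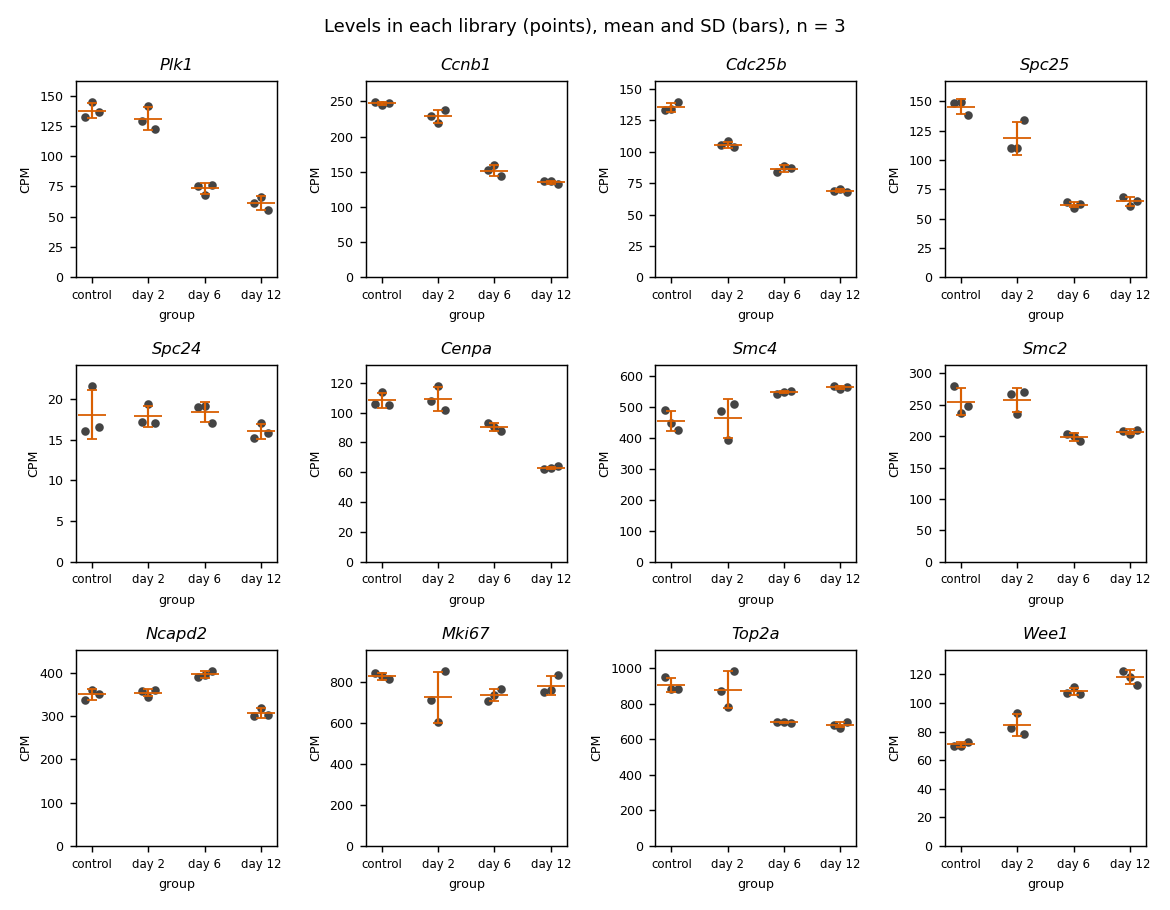
TMM-scaled CPM of 11 of the genes and of Wee1 in every library, as 1 point a library with bars for the mean and SD of 3 libraries, in control and on day 2, day 6 and day 12. Spc25 and Plk1 step down after day 2, Cenpa steps down again on day 12, Spc24 keeps overlapping groups, and Ncapd2 is highest on day 6.

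In the group of the APC/C and separase, 3 of 4 genes fell on day 12. Cdc20, the activator that brings substrates to the APC/C, had 128, 134 and 129 CPM in control, 110.3, 115 and 118 on day 2, 92.5, 95.6 and 90.8 on day 6 and 72.6, 79.9 and 69.1 on day 12. The day 6 and day 12 groups lay below the controls and apart from each other. Cdc20 fell on day 12 against control (log2 difference -0.82 ± 0.06, edgeR adjusted p = 2.74e-13) and against day 6 (log2 difference -0.33 ± 0.06, edgeR adjusted p = 0.000226). Its small fall on day 2 (log2 difference -0.18 ± 0.06, edgeR adjusted p = 0.03) did not hold without day 2 A, control B or control C (adjusted p 0.0634 to 0.153), and with DESeq2 its adjusted p was 0.0569.

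Ube2c, the ubiquitin-conjugating enzyme of the APC/C, had the highest TPM of the 46 genes in control, 641 ± 16.9. It had 289, 308 and 303 CPM in control, 328, 372 and 279 on day 2, 194, 189 and 211 on day 6 and 187, 185 and 174 on day 12. All day 2 libraries were above all day 6 and day 12 libraries, and day 12 against control gave a log2 difference of -0.72 ± 0.07 (edgeR adjusted p = 4.33e-09). Of the exon bases of Ube2c, 22.8% are shared with Tnnc2 on the other strand, and the use of strand in counting is not given, so its count is uncertain. Espl1, the separase that cuts cohesin, fell on day 12 (log2 difference -0.67 ± 0.07, edgeR adjusted p = 1.04e-10), whereas Pttg1, the securin that holds it back, averaged 30.9 ± 1.04 CPM on day 12 and 32.6 ± 3.77 CPM in control and was not called (log2 difference -0.07 ± 0.12, edgeR adjusted p = 0.683).

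Genes of chromosome structure went in both directions. On day 12, 5 of 7 fell and 1 rose, and on day 6, 4 fell and 2 rose. Condensin, the ring that compacts chromosomes, pairs SMC2 and SMC4 with the subunits NCAPD2, NCAPG and NCAPH. Smc4 (chromosome 3, bases 69004738 to 69034623, plus strand) had 492, 449 and 427 CPM in control, 488, 393 and 511 on day 2, 544, 551 and 552 on day 6 and 567, 559 and 565 on day 12. All day 12 libraries were above all controls. It rose on day 6 (log2 difference 0.27 ± 0.07, edgeR adjusted p = 0.00167) and on day 12 (log2 difference 0.31 ± 0.07, edgeR adjusted p = 0.000452), the sole gene of the 46 to rise that day.

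Smc2 (chromosome 4, bases 52439243 to 52488260, plus strand), its ring partner, had 279, 238 and 248 CPM in control, 268, 235 and 269.8 on day 2, 203, 201 and 192 on day 6 and 208, 203 and 210.2 on day 12. It fell on day 6 (log2 difference -0.36 ± 0.06, edgeR adjusted p = 6.28e-06) and on day 12 (log2 difference -0.30 ± 0.06, edgeR adjusted p = 7.89e-05). Ncapg fell on day 12 (log2 difference -0.53 ± 0.07, edgeR adjusted p = 1.23e-07), and Ncaph fell on day 12 (log2 difference -0.39 ± 0.07, edgeR adjusted p = 2.13e-05). Both SMC subunits also belong to condensin II, whose own subunits are not among the 46 genes.

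Ncapd2 (chromosome 6, bases 125168007 to 125191701, minus strand) moved both ways. Its libraries had 337, 360.4 and 351 CPM in control, 357, 345 and 359 on day 2, 389, 393 and 405 on day 6 and 299, 319 and 301 on day 12. The day 6 libraries were above all controls, and the day 12 libraries were the lowest group. Ncapd2 rose on day 6 (log2 difference 0.18 ± 0.05, edgeR adjusted p = 0.00369) and fell on day 12 (log2 difference -0.19 ± 0.05, edgeR adjusted p = 0.00254), and day 12 against day 6 gave a log2 difference of -0.37 ± 0.05 (edgeR adjusted p = 1.66e-06). On log2(TPM + 1), day 12 against control was -0.08 with a limma adjusted p of 0.478.

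Top2a, the topoisomerase that untangles sister chromatids (chromosome 11, bases 98992943 to 99024189, minus strand), had 949, 880.1 and 879.6 CPM in control, 868, 783 and 985 on day 2, 694, 697 and 689 on day 6 and 682, 665 and 694 on day 12. It fell by day 6 (log2 difference -0.38 ± 0.06, edgeR adjusted p = 1.86e-06), and day 12 against day 6 gave a log2 difference of -0.03 ± 0.06 (edgeR adjusted p = 0.796). Mki67, which coats mitotic chromosomes (chromosome 7, bases 135689784 to 135716361, minus strand), had 844, 828 and 813 CPM in control and 715, 607 and 857 on day 2. It had 708, 737 and 765 CPM on day 6 and 753, 763 and 835 on day 12. The day 6 libraries lay below the controls, whereas the day 2 and day 12 libraries overlapped them. Day 12 against control gave a log2 difference of -0.08 ± 0.09 (edgeR adjusted p = 0.486), and day 6 against control a log2 difference of -0.17 ± 0.09 (edgeR adjusted p = 0.126). Calls of Mki67 depended on the setting: day 6 against control had an edgeR adjusted p of 0.0118 without day 2 B, 0.0108 without day 2 C, 0.0234 with no filter on low counts and 0.003 with the 2 groups fitted alone. Day 2 against control had an edgeR adjusted p of 0.182, and of 0.0184 with no filter and 0.00012 without day 2 C.

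Of 7 spindle and cytokinesis genes, 6 fell on day 6 and on day 12. Hmmr, a spindle-pole protein also known as a hyaluronan receptor (chromosome 11, bases 40701395 to 40733422, minus strand), had 121, 108 and 112 CPM in control, 105, 102 and 108 on day 2, 62.6, 62.5 and 57.1 on day 6 and 61.3, 62.0 and 72.2 on day 12. Its day 6 and day 12 libraries lay far below the others and overlapped each other in part, and day 12 against control gave a log2 difference of -0.80 ± 0.07 (edgeR adjusted p = 6.69e-12). Anln, the scaffold of the cleavage furrow, fell on day 12 (log2 difference -0.71 ± 0.07, edgeR adjusted p = 2.23e-11). Nusap1, a spindle microtubule binder, fell on day 12 (log2 difference -0.49 ± 0.06, edgeR adjusted p = 9.33e-09).

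Prc1, which bundles the central spindle (chromosome 7, bases 80294450 to 80316259, plus strand), had 306, 291 and 295 CPM in control, 256, 246 and 285 on day 2, 191, 207 and 205 on day 6 and 184, 197 and 203 on day 12. Day 6 and day 12 libraries mixed with each other below the controls, and the gene fell on day 12 (log2 difference -0.61 ± 0.06, edgeR adjusted p = 6.55e-11). The day 2 fall of Prc1 (log2 difference -0.18 ± 0.06, edgeR adjusted p = 0.0281) did not hold without day 2 A, without day 2 B or without control A or C (adjusted p 0.0639 to 0.129).

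Ect2 and Racgap1, which together switch on RHOA for the contractile ring, had smaller falls. Ect2 averaged 194 ± 4.35 CPM on day 12 and 243 ± 15.7 CPM in control (log2 difference -0.33 ± 0.06, edgeR adjusted p = 9.86e-06). Racgap1 averaged 266 ± 1.47 CPM on day 12 and 333 ± 5.66 CPM in control (log2 difference -0.32 ± 0.05, edgeR adjusted p = 1.41e-06). On day 6, Ect2 (log2 difference -0.15 ± 0.06, edgeR adjusted p = 0.0266) lost its call without control A, control C, day 6 B or day 6 C (adjusted p 0.0553 to 0.156), and Racgap1 (log2 difference -0.15 ± 0.05, edgeR adjusted p = 0.0116) had the opposite sign on the TPM scale (0.02, not called). Ckap2, a spindle microtubule protein, averaged 83.9 ± 3.75 CPM on day 12 and 84.3 ± 4.64 CPM in control and was not called (log2 difference -0.01 ± 0.07, edgeR adjusted p = 0.951).

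Most of the genes that fell did so between day 2 and day 6. Day 6 against day 2, 34 of 46 genes fell and 2 rose, while 22.3% of all genes fell and 22.6% rose (44.9% in all). Of the 46 genes, 30 were both not called on day 2 against control and lower on day 6 than on day 2. Largest among these steps was that of Plk1 (log2 difference -0.83 ± 0.07, edgeR adjusted p = 1.15e-11), followed by Hmmr (log2 difference -0.79 ± 0.07, edgeR adjusted p = 4.35e-11) and Ube2c (log2 difference -0.71 ± 0.07, edgeR adjusted p = 1.25e-08). Spc25, already lower on day 2, had a log2 difference of -0.95 ± 0.07 (edgeR adjusted p = 8.79e-13). On log2(TPM + 1), limma called 17 of the 46 genes lower in this comparison. Over all genes it called 1383 lower and 3372 higher, where edgeR called 3007 and 3055, and the median log2 difference over all genes was 0.115, against -0.00173 in edgeR's fit.

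A smaller second fall followed. Day 12 against day 6, 14 of the 46 genes fell and none rose (edgeR, adjusted p below 0.05), while 11.0% of all genes fell and 11.0% rose (22.0% in all). In 21 of the 46 genes every day 12 library was lower than every day 6 library, and in 2 every one was higher, beside 19.3% and 20.0% of all genes. At an unadjusted p below 0.05, 0 of the 46 were higher on day 12 than on day 6, and DESeq2 called 0 higher. Over the whole span, day 12 against day 2, 35 of the 46 fell and 1 rose, beside 21.6% and 22.3% of all genes (43.9% in all). On log2(TPM + 1), limma called 883 of all genes lower and 496 higher on day 12 against day 6 (edgeR 1489 and 1482), and 1571 lower and 2677 higher on day 12 against day 2 (edgeR 2922 and 3009). By edgeR, genes lower on day 6 and again on day 12 were Plk1, Ccnb1, Cdc20, Cdc25b, Aurka, Aurkb, Incenp, Cenpa, Ect2, Espl1, Nek2 and Racgap1, and the other 2 of the 14 were Birc5 and Ncapd2. Another 22 genes were lower on both days with no call between them, among them Ccna2, Cdk1, Bub1, Spc25, Top2a, Anln, Nusap1 and Hmmr. With 1 library left out at a time, between 10 and 16 of the 46 genes fell in this comparison. Ccnb1 (log2 difference -0.17 ± 0.06, edgeR adjusted p = 0.0319) lost its call without any of day 6 A, day 6 B or the 3 day 12 libraries (adjusted p 0.0539 to 0.162). So did Aurka without day 6 C or day 12 A, Aurkb without day 6 C or day 12 B, Ect2 without day 6 A, day 6 B or day 12 B, and Birc5 without day 12 C or day 6 A (edgeR adjusted p 0.0638 to 0.157). On log2(TPM + 1), Aurkb, Cenpa, Ect2, Espl1 and Nek2 were not called lower on day 6 against control (limma adjusted p 0.0628 to 0.746). Incenp and Racgap1 had the opposite sign there. Ccnb1, Birc5, Ect2 and Espl1 were not called on day 12 against day 6 on that scale (limma adjusted p 0.0552 to 0.336).

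**Figure D4:**
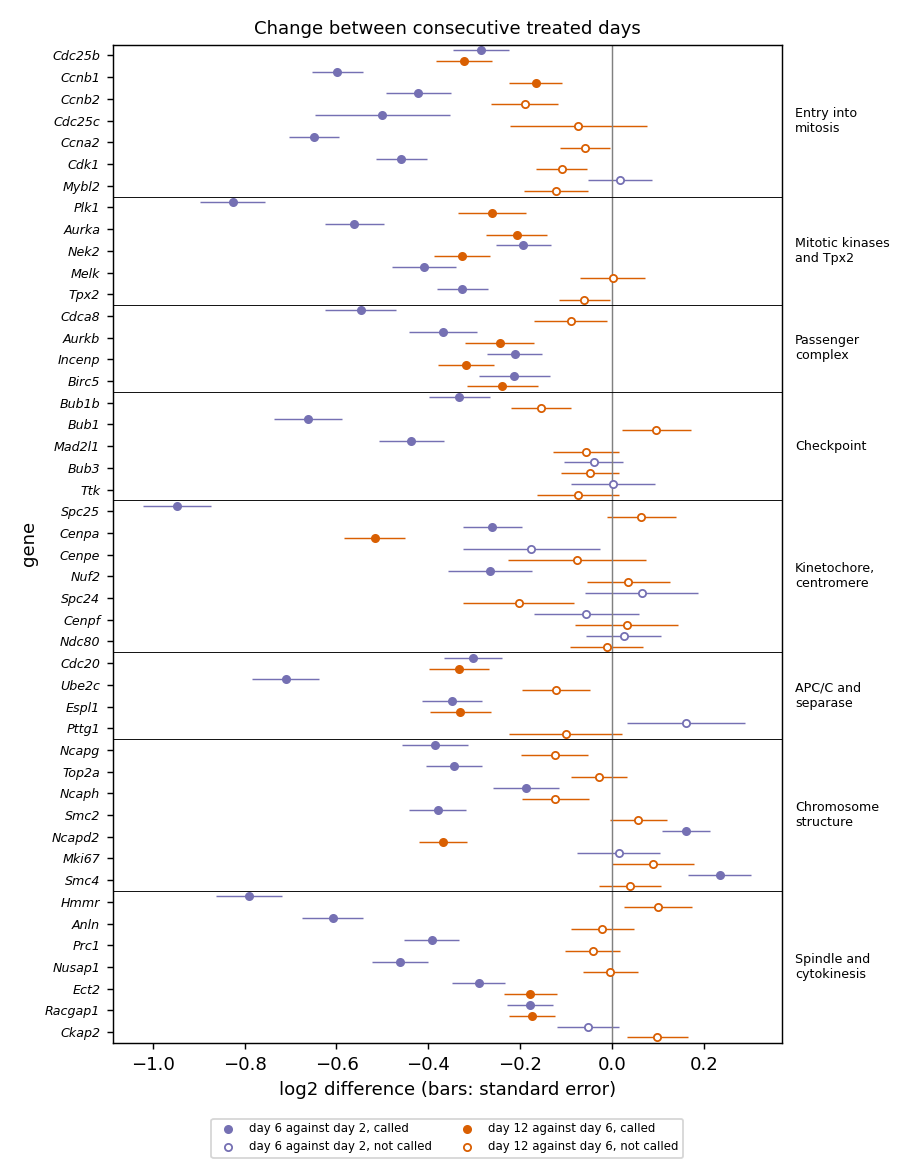
Log2 difference between consecutive treated days for each gene, day 12 against day 6 and day 6 against day 2, with bars for the standard error and filled points for genes past the threshold. Steps between day 2 and day 6 reach -0.95 for Spc25, and steps between day 6 and day 12 reach -0.52 for Cenpa.

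In the summed level, the day 2 libraries had the largest SD of the 4 groups. Libraries also differed from their group by gene length. Across the 46 genes, the log2 ratio of a library to the mean of its 2 companions had a Spearman rho with exon length of 0.52 in control A, -0.49 in day 2 B, -0.40 in control B and 0.38 in day 2 C, and between -0.28 and 0.22 in the other 8 libraries, as a description over genes that share these libraries. Cenpe, Cenpf and Mki67, with 8620, 15433 and 10061 exon bases, are among the long genes, and their log2 ratios in day 2 B were -0.60, -0.40 and -0.37. Other long genes differed: the ratio was -0.24 for Top2a (9013 bases), -0.16 for Anln (9063), 0.01 for Espl1 (8749) and 0.22 for Mad2l1 (8390). The part of these length trends in the results was not tested.

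Levels per length ordered the 46 genes in control as follows. Ube2c stood highest with 641 ± 16.9 TPM, above Cdk1 with 425 ± 26.8, Top2a with 361 ± 27.6 and Ccna2 with 237 ± 13.4 (SD, n = 3 each), and the values of neighbours in this order did not overlap. Lowest were Cdc25c with 17.5 ± 2.75 TPM, Ttk with 23.6 ± 0.832 and Spc24 with 30.9 ± 3.29. On day 12, Ube2c still stood highest with 397 ± 11.8 TPM and Cdk1 next with 298 ± 18.0. A total of 13 of the 46 genes share exon bases with another gene, and 5 of them over 10% (Ube2c, Ncapg with Lcorl, Cdc25c with Gm3550, Ccna2 with Exosc9, and Prc1 with Rccd1), so these counts are uncertain where strand was not used.

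A further list of 110 gene symbols of G2 and mitosis, kinesins aside, had 105 in the tables, all of which passed the filter. The symbols not found are older names of genes that the list also holds under their current names, so no gene of it was missing. Of these 105, 51 fell and 5 rose on day 12 against control, beside 26.6% and 26.1% of all genes tested. On day 6, 40 fell and 14 rose, beside 27.6% and 26.7%, and on day 2, 3 fell and 6 rose, beside 10.9% and 10.3%. The median log2 difference of the 105 genes on day 12 was -0.18, against -0.48 for the 46 genes. The difference between the lists was not tested. Among the 6 with the strongest F-test, Ube2s, the partner of UBE2C that extends ubiquitin chains, fell on day 12 (log2 difference -0.74 ± 0.06, edgeR adjusted p = 9.4e-13), as did Cdca3 (log2 difference -0.84 ± 0.07, edgeR adjusted p = 1.25e-12). Ccnf (log2 difference -0.65 ± 0.07, edgeR adjusted p = 1.82e-09), which encodes cyclin F, Cdca2 (log2 difference -0.69 ± 0.08, edgeR adjusted p = 5.07e-09) and Depdc1a (log2 difference -0.72 ± 0.08, edgeR adjusted p = 1.86e-09) fell too.

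Wee1, the kinase that keeps CDK1 inactive, went the other way. Its libraries had 69.9, 70.2 and 73.0 CPM in control, 82.6, 93.3 and 78.5 on day 2, 107, 111 and 107 on day 6 and 123, 118 and 113 on day 12. Every treated library was above every control. Wee1 rose on day 2 (log2 difference 0.24 ± 0.07, edgeR adjusted p = 0.0106), day 6 (log2 difference 0.61 ± 0.07, edgeR adjusted p = 1.22e-09) and day 12 (log2 difference 0.73 ± 0.07, edgeR adjusted p = 1.24e-11), while the opposing phosphatase gene Cdc25b fell on each of these days.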

How the data were processed

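PolyA RNA of 12 libraries was measured by bulk RNA sequencing. Per the submitters' processing notes, STAR 2.7.8a, RSEM 1.3.3, cutadapt 2.3 and FastQC 0.11.8 were used with GRCm38; the annotation release and strand use are not given in the sources used here. The authors deposited expected counts per gene, not normalized and already whole, and TPM values were deposited by the authors in a second table. Each library's group came from its label.

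The counts were tested with edgeR 4.0.16 in R 4.3.3: filterByExpr by group left 13513 of 55491 genes, TMM scaled the libraries, and 1 robust quasi-likelihood model of the 4 groups was fitted (8 residual degrees of freedom). The 6 contrasts and the F-test were two-sided, adjusted by Benjamini-Hochberg over all genes tested, with 0.05 as the threshold. CPM are per 1000000 TMM-scaled counts. The code was tested on simulated data. No pair of libraries agreed within sampling noise.

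Alternatives were DESeq2 1.42.0, RLE factors, no low-count filter, a replicate block, limma 3.58.1 on log2(TPM + 1) and log2(TPM + 0.1), the filter off for TPM, each pair of groups alone, each library left out and, chosen after seeing the data, library totals without TMM. Exon overlap (GENCODE M21) and the whole promoter window were also looked at after seeing the data.

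The 46 genes, the further list and the marker lists were chosen with earlier results of these data known. Any of the 46 could be named. Of the further list, the 6 genes with the smallest F-test p were named, and beyond these only Pax8, markers and genes sharing exons with the 46. The result of 1 marker list is not reported here. Counts limit precision: the shallowest library held 4326667.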

Additional observations from a re-analysis of the deposited data

Results flagged for a closer look

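Ncapd2, a condensin subunit, had effects of opposite direction on 2 treated days. Against control, its log2 difference was 0.18 ± 0.05 on day 6 (SE, edgeR adjusted p = 0.00369) and -0.19 ± 0.05 on day 12 (edgeR adjusted p = 0.00254), and the difference itself, day 12 against day 6, was -0.37 ± 0.05 (edgeR adjusted p = 1.66e-06). Both comparisons share the control libraries. It was the only one of the 46 genes called in opposite directions on day 6 and day 12. All 3 day 12 libraries were lower than all 3 day 6 libraries. On log2(TPM + 1), day 12 against control was -0.08 (limma adjusted p = 0.478). Of its exon bases, 3.78% are shared with the small RNA gene Scarna10 on the same strand.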

How the results depend on the processing

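Counts of the 46 genes kept within 1.5 times their values with DESeq2, RLE factors, no low-count filter, library totals without TMM and a replicate block. Same-letter libraries did not pair (correlations of deviations -0.149 to 0.111 over 18 pairs, 1 above 0.1, and 4 of 12 libraries nearest their own letter). With the replicate block, 35 genes fell on day 6 and 15 fell on day 12 against day 6 (34 and 14 without it), the added calls being Mki67 and Ccnb2, and no call was lost.

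With limma on log2(TPM + 1), log2(TPM + 0.1) and without the filter on TPM, the genes lower on day 2 against control numbered 2, 2 and 1 (4 in edgeR), those on day 6 against control 22, 22 and 21 (34), and those on day 6 against day 2 17, 17 and 15 (34). Without that filter, 1 gene was higher on day 6 against day 2 (2) and 8 lower on day 12 against day 6 (14). Fitted to the 2 groups alone, 2 were lower on day 2 against control. Signs turned for calls of Incenp on day 6 against control (0.05089, 0.05128 and 0.05089) and of Racgap1 on day 6 against control (0.02018, 0.02027 and 0.02018) and against day 2 (0.01265, 0.01272 and 0.01265), none called on TPM. With no low-count filter Mki67 was called lower on day 2 and on day 6 against control. Over all genes, limma on log2(TPM + 1) called 745 higher on day 2 against control (1392 in edgeR) and 2398 lower on day 12 against control (3601). The cause was not tested.

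With 1 library left out, the F-test called 36 to 40 genes. Those lower against control ran from 2 to 9 on day 2, 32 to 36 on day 6 and 36 to 37 on day 12, and those higher from 0 to 2, 2 to 2 and 1 to 1. Day 6 against day 2 gave 31 to 35 lower and 1 to 3 higher, day 12 against day 2 34 to 36 and 1 to 2, and day 12 against day 6 10 to 16 and 0 to 0. Spc24 and Cdc25c, which had few reads, had wide errors on day 12 against control, as did Cenpe, which had more reads.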
